A study of Mus musculus with 15 samples.

Results

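The microRNAs described here are those that mark somatic cells of the foetal testis. They were taken as every mature microRNA whose name is miR-202, miR-126, miR-143, miR-145, miR-140, miR-142, miR-144, miR-199, miR-214 or miR-451, with any letter and either arm, in small RNA sequencing of mouse testes at E16.5. The rule found 23 names among the 1305 mature microRNA names of the 6 tables. They fall into 4 classes: supporting cells (miR-202, 2 names), endothelium (miR-126, 4 names), mesenchyme and smooth muscle (miR-143, miR-145, miR-199, miR-214 and miR-140, 12 names) and blood (miR-142, miR-144 and miR-451, 5 names). Of these names 22 passed the filter on low counts. The exception was miR-126b-3p, which had between 0 and 2 reads in each library.

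The 6 libraries comprised 3 labelled as controls, which the paper describes as *Tex15*+/- testes, and 3 labelled *Tex15*-/-. All were of the mixed B6CBAF1/Crl, C57BL/6N background. The null allele of *Tex15*, which encodes a nuclear protein of foetal germ cells, was made by genome editing and carries stop codons in a coding exon. Each library was made from a pool of 6 foetal testes, so germ cells, supporting cells, interstitial cells, vessels and blood contributed to each value. A smaller share of a cell type and less of its microRNA per cell therefore cannot be told apart. The labels do not say whether pools shared litters, and p-values measure the spread between these libraries. The tables held between 11184854 and 83102785 reads of 18–32 nt, with the highest number in control replicate 2. Between 5671330 and 34180789 of them were mature microRNA reads, which was 41.0–50.6% of the reads, with the highest share in *Tex15*-/- replicate 2. Levels are given below as RPM, reads per 1000000 mature microRNA reads of the library. *Tex15*-/- replicate 2 stood apart from the rest on the leading axis of a multidimensional scaling of all names, at 0.66 against -0.30 to 0.11 for the other 5, and values without it are given where it decides a result.

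*Tex15* itself was examined first, as a check of the labels. Small RNA libraries hold fragments of messenger RNA, and reads of 18–32 nt that matched a *Tex15* transcript exactly were counted. Per 1000000 gene-annotated reads they numbered 19.9, 33.4 and 13.0 in the control libraries and 25.6, 84.6 and 25.7 in the libraries labelled *Tex15*-/- (two-sided exact permutation test, p = 0.4, where 0.1 is the smallest p that 3 libraries against 3 allow). The value was higher in the library labelled *Tex15*-/- in 3 of 3 pairs of the same replicate number. The fragments were thus not lower in the libraries labelled *Tex15*-/-, and the highest value was in replicate 2 of that group. With each distinct sequence counted once, per 1000000 distinct gene-annotated sequences, the values were 46.1, 68.0 and 29.4 against 68.7, 161.9 and 68.4, which did not overlap and were higher in the libraries labelled *Tex15*-/- (two-sided exact permutation test, p = 0.1). These values rest on few reads. There were 15 in control replicate 1, 14 in control replicate 3, and 20, 55 and 24 in the libraries labelled *Tex15*-/-. Only control replicate 2, the most deeply sequenced library, had more. With counts this low in most libraries, the fragments cannot decide whether the labels are right. The match was not checked for uniqueness against other genes. The submitters' names of the small RNA libraries carry the letter T for controls and C for *Tex15*-/-, the reverse of the letters in the names of their gonocyte libraries, whereas the tables themselves name the same groups as the labels do. In sorted E16.5 gonocytes, where *Tex15* was read as messenger RNA, it had 8183, 8315 and 9082 reads in controls and 2338, 1267 and 1310 in *Tex15*-/- libraries. Every direction given for the small RNA below follows the labels.

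MicroRNAs are cut from hairpin transcripts, first by Drosha in the nucleus and then by Dicer in the cytoplasm, and 1 or both arms of the hairpin (5p and 3p) can be loaded into an Argonaute protein. Pairing to target messenger RNA is led by the seed, bases 2 to 8 from the 5′ end, so that a shift of the 5′ end by a single base gives a different seed. Some microRNAs are confined to few cell lineages and are used as signs of those cells in whole tissue. miR-202 is typical of the gonads, where it is made in supporting cells. miR-126 lies in the endothelial gene *Egfl7* and acts in vessel growth. miR-143 and miR-145 are transcribed together and are typical of smooth muscle, miR-214 and part of miR-199 come from 1 transcript in mesenchyme, and miR-140 is best known from cartilage. miR-142 is typical of blood cells, and miR-144 and miR-451 are made together in red blood cells, where miR-451 is matured by Argonaute 2 without Dicer.

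The mature sequences below, from RefSeq for GRCm38.p6, are those of the members on which the results turn, with the seed in capitals. RefSeq entries were matched for 16 of the 23 names. Among the matched names, none shared a seed other than miR-199a-3p and miR-199b-3p, whose whole sequences are the same.
miR-202-5p: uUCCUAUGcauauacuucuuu
miR-202-3p: aGAGGUAUagcgcaugggaaga
miR-126a-3p: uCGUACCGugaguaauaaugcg
miR-199a-3p and miR-199b-3p: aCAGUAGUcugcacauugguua
miR-199a-5p: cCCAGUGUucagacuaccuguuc
miR-214-5p: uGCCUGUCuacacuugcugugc
miR-214-3p: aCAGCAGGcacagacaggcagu
miR-140-3p: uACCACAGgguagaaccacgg
miR-142a-5p: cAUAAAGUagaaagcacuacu
miR-142a-3p: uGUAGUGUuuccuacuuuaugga
miR-144-5p: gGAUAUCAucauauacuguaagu
miR-144-3p: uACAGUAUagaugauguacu
miR-451a: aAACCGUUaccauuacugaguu

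In the GENCODE annotation of GRCm38, *Mir202* lies on the minus strand of chromosome 7 from 139957689 to 139957760, in an exon of *Gm2044*. *Mir126a* (chromosome 2, 26591357 to 26591429, plus strand) is inside an annotated exon of *Egfl7*, and *Mir126b* lies on the opposite strand within the same stretch, from 26591363 to 26591420. *Mir199a-2* (chromosome 1, 162217814 to 162217923) and *Mir214* (chromosome 1, 162223368 to 162223477) are on the plus strand, 5554 bp from start to start, both in exons of *Dnm3os* and antisense to an intron of *Dnm3*. *Mir199a-1* (chromosome 9, 21496495 to 21496564, minus strand) and *Mir199b* (chromosome 2, 32318460 to 32318569, plus strand) are antisense to introns of *Dnm2* and *Dnm1*. *Mir140* (chromosome 8, 107551244 to 107551313, plus strand) lies in an exon of *Wwp2*. *Mir142* (chromosome 11, 87756864 to 87756927, plus strand) lies in an intron of *Mir142hg*, and *Mir144* and *Mir451a* lie 165 bp from start to start on the plus strand of the same chromosome, from 78073005 to 78073070 and from 78073170 to 78073241, in no other annotated gene.

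The members together made up 12.2%, 10.7% and 11.3% of mature microRNA reads in the control libraries and 8.58%, 7.44% and 10.46% in those labelled *Tex15*-/-. In controls, miR-126a-3p with 41757 ± 5072 RPM (SD, n = 3) and miR-199a/b-3p with 41383 ± 3049 (SD, n = 3) were the most abundant, and their ranges overlapped. Of all reads of the members, these 2 held 36.6% and 36.3%. miR-143-3p followed with 14700 ± 2318 (SD, n = 3) and miR-199a-5p with 9916 ± 2407 (SD, n = 3), and these ranges did not overlap. Supporting cell miR-202-5p came next at 1951 ± 119 (SD, n = 3), then miR-214-5p at 1490 ± 215 (SD, n = 3) and miR-140-3p at 692 ± 52.1 (SD, n = 3). The ranges of miR-202-3p, miR-199b-5p and miR-214-3p overlapped, at means of 474, 396 and 389 RPM. The blood microRNAs were the least abundant class. miR-451a, their highest, had 69.5 ± 10.7 RPM (SD, n = 3), and its range overlapped that of miR-142a-3p at 50.6 ± 17.7 (SD, n = 3).

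**Figure D1:**
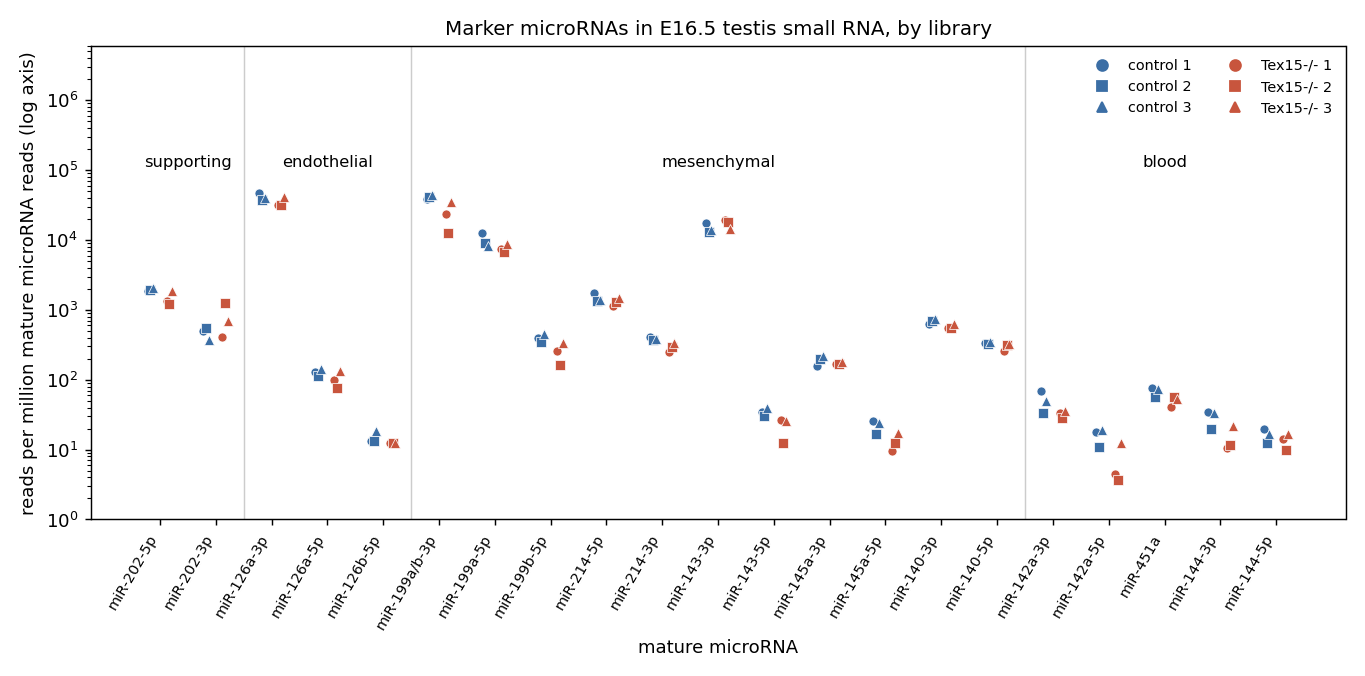
Level of each member in each library, in RPM on a log axis, by class. Blue marks are controls, red marks are libraries labelled *Tex15*-/-, and the shape gives the replicate number; miR-202-3p was 1258 in *Tex15*-/- replicate 2 and between 374 and 688 in the other libraries.

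No member passed an adjusted p of 0.01 between the libraries labelled *Tex15*-/- and controls in edgeR's quasi-likelihood test, and the background was 0 of 583 names (0.0%). At an adjusted p under 0.05 there were 3 names (0.515%) and no member. At an unadjusted p under 0.05 there were 92 of 583 names in this test, and DESeq2 called 4 names and no member at the adjusted threshold of 0.01. The lowest adjusted p of a member was 0.304. At an unadjusted p under 0.05, 5 of 22 members (22.7%) were lower and 1 was higher, where all names gave 6.52% lower and 9.26% higher. With miR-199a-3p and miR-199b-3p counted once, the lower count was 4 of 21 (19.0%). Over the 22 names, with both miR-199 names counted, the lower count lay between 0 and 7 with each library left out in turn, and was 0 where control replicate 1 or 3 was left out. Leaving out *Tex15*-/- replicate 1 gave 1, replicate 2 of that group gave 2, which were the names of miR-199a/b-3p, and its replicate 3 gave 7. The log2 change was below 0 for 19 of 22 members and for 51.3% of all names, with a median of -0.25 for the members and -0.01 for all names. TMM scaling, which fits 1 factor per library so that most microRNAs do not change, enters these values. Without it the median of all names was -0.15 and that of the members -0.39, and the names at an unadjusted p under 0.05 split into 67 lower and 28 higher, in place of 38 and 54, and the members among them into 8 lower and 0 higher, in place of 5 and 1. Changes of members are therefore relative to the other microRNAs. In RPM, groups did not overlap for 9 of 22 members, each lower in the libraries labelled *Tex15*-/-, against 17.3% of all names lower and 6.69% higher. After TMM scaling the count was 4 of 22 against 10.3% lower and 10.8% higher. With miR-199a/b-3p counted once these counts were 8 of 21 (38.1%) and 3 of 21 (14.3%), and the latter was near the background.

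**Figure D2:**
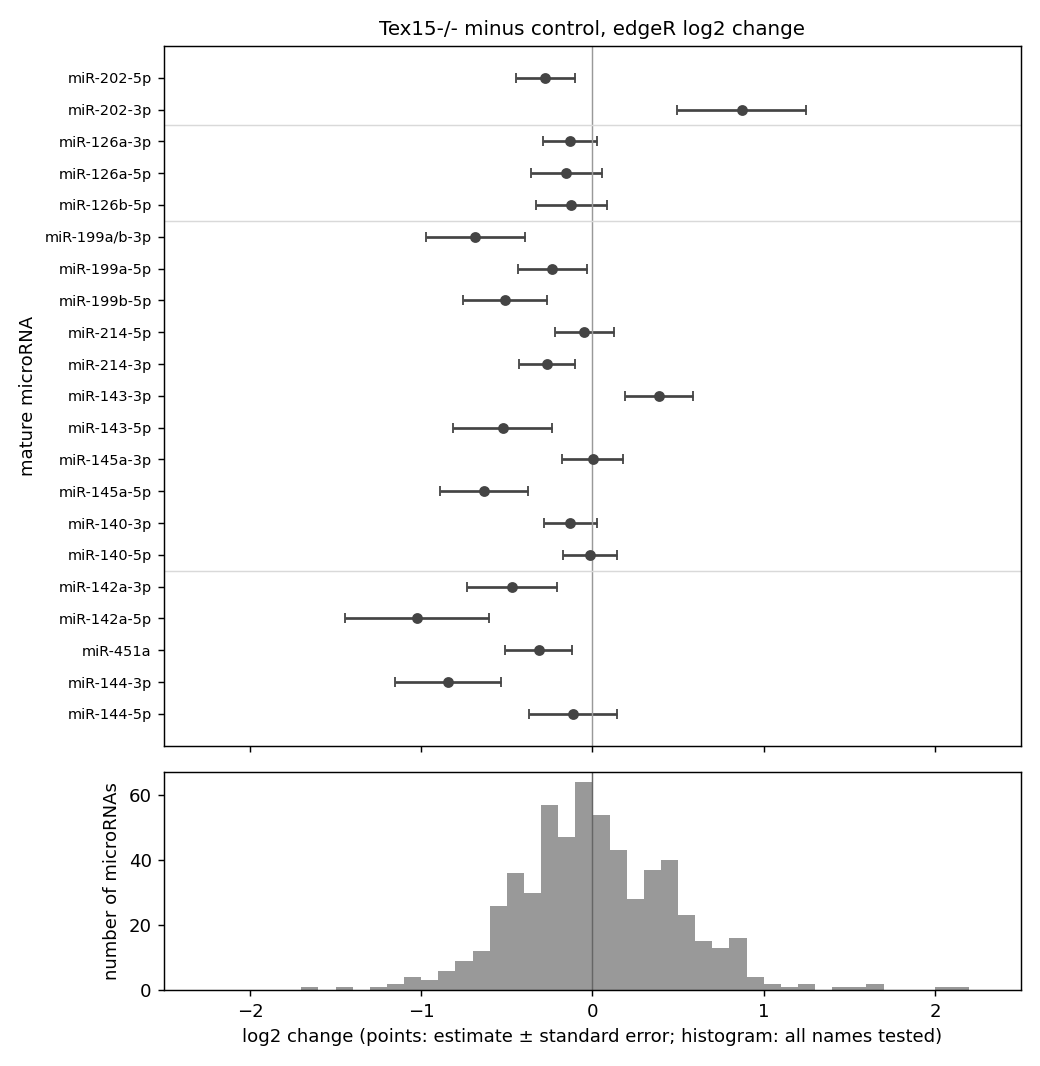
Log2 change of each member between libraries labelled *Tex15*-/- and controls (upper part, points with standard error bars from edgeR, n = 3 and 3) above a histogram of the same log2 change over all 583 names tested (lower part). With miR-199a/b-3p drawn once, 18 of 21 points lie below 0. The points range from -1.02 for miR-142a-5p to 0.87 for miR-202-3p, and none passed the adjusted threshold.

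Summed by class, the libraries overlapped for supporting, endothelial and blood microRNAs and did not overlap for mesenchymal ones. The supporting class had 2351, 2473 and 2454 RPM in controls and 1755, 2466 and 2523 in the libraries labelled *Tex15*-/-. The endothelial class had 47539, 37702 and 40456 against 31435, 31442 and 41071. In *Tex15*-/- replicate 1 all 4 classes were below every control, whereas in replicate 3 the supporting sum was the highest of the 6 libraries. The mesenchymal class had 72188, 66259 and 70200 RPM against 52493, 40360 and 60893, and the blood class 218, 134 and 192 against 104, 111 and 139. Replicate numbers were taken to pair these libraries, which the labels do not state. By these numbers, the mesenchymal and blood sums were lower in the library labelled *Tex15*-/- in 3 of 3 pairs. The supporting and endothelial sums were lower in 2 of 3, with 2473 and 2466 close for the supporting sum of replicate 2. Without TMM factors, 64.5% of all names had a log2 change below 0. As a ratio of means, the log2 difference was -0.11 for supporting, -0.27 for endothelial, -0.44 for mesenchymal and -0.62 for blood microRNAs. The endothelial value was -0.17 without control replicate 1 and -0.41 without *Tex15*-/- replicate 3. The supporting value turned positive without *Tex15*-/- replicate 1. The SD of log2 values within groups was 0.209, 0.199, 0.217 and 0.30. Scaled by TMM factors the same differences were 0.03, -0.13, -0.30 and -0.47. Per 1000000 reads of 18–32 nt the mesenchymal groups overlapped as well, with a log2 difference of -0.33. No test was made on these sums, because the members were chosen with earlier results known.

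**Figure D3:**
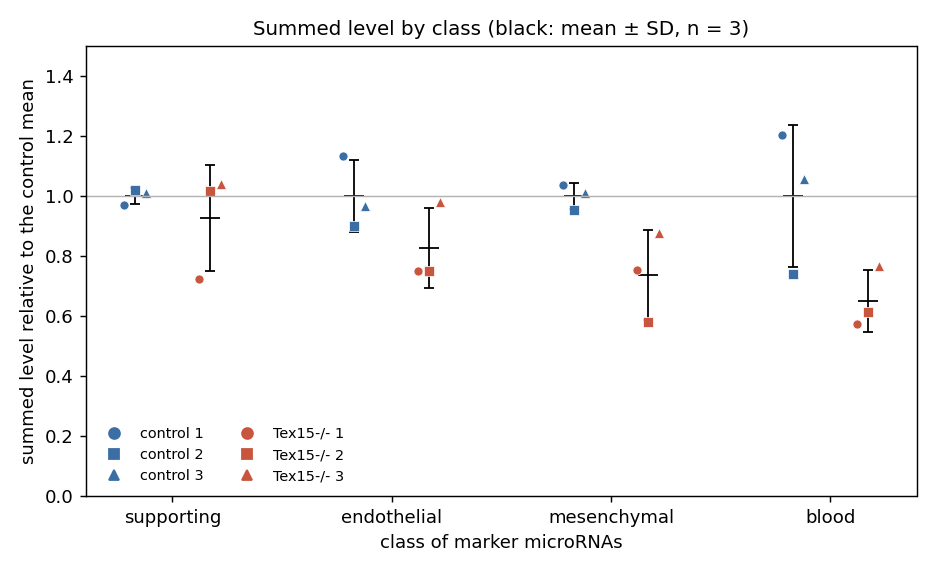
Summed level of each class of members in each library, divided by the mean of the 3 controls. Black bars give mean and SD (n = 3), and the 3 libraries labelled *Tex15*-/- lie below all controls in the mesenchymal class only.

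Of the mesenchymal class, miR-199a/b-3p held 59.5% of reads in controls and 45.8% in the libraries labelled *Tex15*-/-. This microRNA, made from 3 hairpins, had 38494, 41084 and 44571 RPM in controls and 23248, 12701 and 34476 in the libraries labelled *Tex15*-/-. All 3 of these were below the lowest control, and replicate 2 was the lowest. edgeR gave a log2 change of -0.69 with a standard error of 0.289 and an adjusted p of 0.304. Without *Tex15*-/- replicate 2 it was -0.42. With miR-199a/b-3p left out of the class, the mesenchymal sum was 33693, 25175 and 25629 RPM against 29244, 27659 and 26417, and the groups overlapped with a log2 difference of -0.02. The remaining members did not share a direction, with miR-143-3p at a log2 change of 0.39 and miR-199a-5p at -0.23, so that this sum does not place the difference of the class in 1 microRNA. It was chosen after the values were seen. The 5p arms were lower by less: miR-199a-5p had 12653, 8971 and 8126 against 7397, 6771 and 8743, with overlapping groups (log2 change -0.23, standard error 0.201, adjusted p = 0.553). It was -0.03 without control replicate 1 and -0.39 without control replicate 3. miR-199b-5p, from the *Mir199b* hairpin alone, had 396, 344 and 448 against 256, 162 and 339. These groups did not overlap, with the closest values 344 and 339 (log2 change -0.51, standard error 0.248, adjusted p = 0.343), and without *Tex15*-/- replicate 2 the change was -0.31.

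The name given to miR-199a/b-3p in the tables carries no information on its hairpin. Because both names have the same mature sequence, each table assigned a given sequence to a single name, and the share of reads named miR-199a-3p was 95.2%, 56.4% and 3.91% in controls and 12.7%, 66.0% and 1.37% in the libraries labelled *Tex15*-/-. Neither group nor depth ordered these shares. With names as deposited, the log2 change would have been -2.21 for miR-199a-3p and 0.05 for miR-199b-3p, in place of -0.69 for either. For this reason a sequence with several names over the 6 tables was counted for each of them, and the 2 names are reported as 1 microRNA. Sequences with several names, 15 of them of this pair, held 1.57–4.53% of mature reads.

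**Figure D4:**
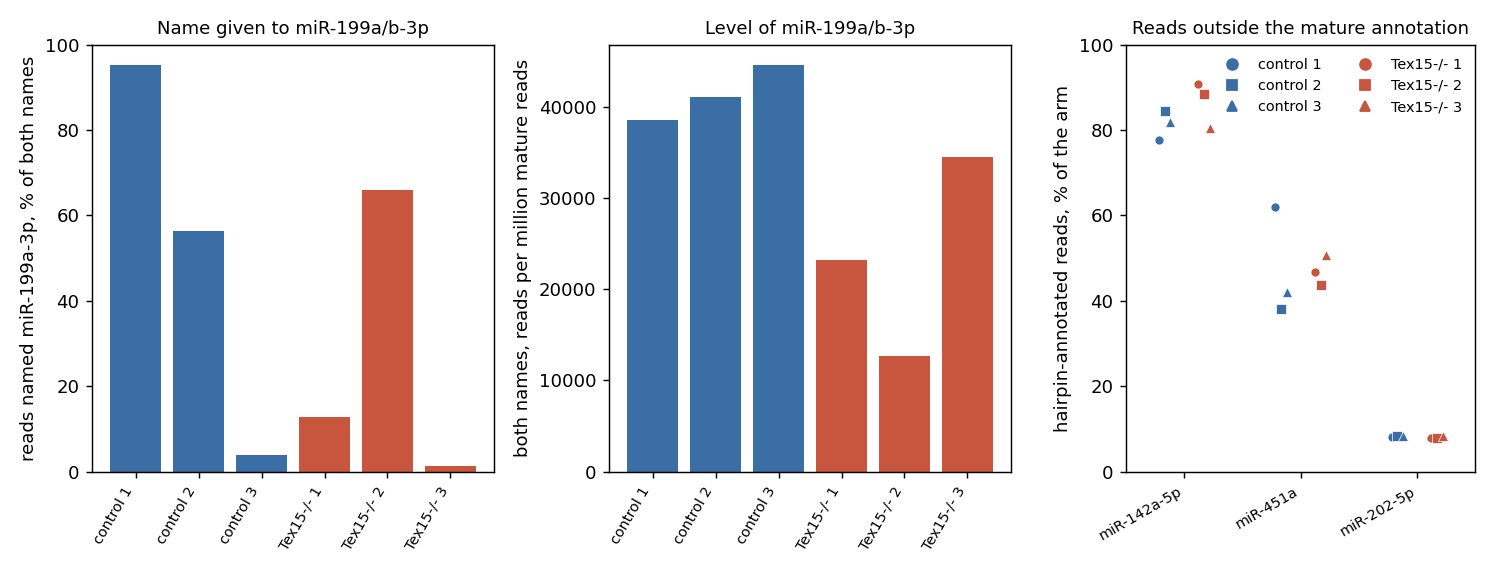
Left, reads named miR-199a-3p as a percentage of reads with either name, by library; middle, both names together in RPM; right, hairpin-annotated reads as a percentage of all reads of the arm, by library. The left bars run from 1.37% to 95.2% without regard to genotype, and the right points are between 77.7% and 90.8% for miR-142a-5p.

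Of the other mesenchymal members, miR-214 came from the same *Dnm3os* transcript as *Mir199a-2*. miR-214-5p had 1737, 1349 and 1384 RPM in controls and 1145, 1277 and 1495 in the libraries labelled *Tex15*-/-, so the groups overlapped (log2 change -0.05, standard error 0.173, adjusted p = 0.898). Its 3p arm, the one usually studied, was the less abundant in these testes, with 413, 373 and 380 against 248, 299 and 331. All 3 values of the latter were below the controls (log2 change -0.27, standard error 0.165, adjusted p = 0.415). Over the alternatives the log2 change of this arm lay between -0.62 and -0.21. miR-140-3p had 637, 699 and 741 against 550, 542 and 624, and miR-140-5p had 332, 325 and 344 against 262, 311 and 321. Neither pair of groups overlapped in RPM, both overlapped after TMM scaling, and their log2 changes were -0.13 (standard error 0.154, adjusted p = 0.70) and -0.02 (standard error 0.157, adjusted p = 0.966).

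For the smooth muscle pair, no arm passed the threshold. miR-143-3p had 17307, 12872 and 13921 RPM in controls and 19180, 18102 and 14345 in the libraries labelled *Tex15*-/-, and the groups overlapped (log2 change 0.39, standard error 0.199, adjusted p = 0.351; 0.24 without *Tex15*-/- replicate 1). It was, besides miR-202-3p, the only member with an estimated increase of more than 0.1 on the log2 scale. Its 5p arm had 35.04, 29.96 and 39.7 against 27.0, 12.5 and 25.8, which did not overlap in RPM and overlapped after TMM scaling (log2 change -0.52, standard error 0.287, adjusted p = 0.381), and the change was -0.29 without *Tex15*-/- replicate 2. From the neighbouring hairpin, miR-145a-3p was more abundant than miR-145a-5p, with 157, 195 and 222 against 170, 171 and 177 RPM (log2 change 0.00, standard error 0.178, adjusted p = 0.999). miR-145a-5p, the arm usually studied, had only 25.7, 16.9 and 24.2 against 9.42, 12.3 and 17.0. These groups overlapped narrowly, at 16.9 and 17.0 (log2 change -0.63, standard error 0.256, adjusted p = 0.304).

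In the endothelial class, miR-126a-3p had 47398, 37575 and 40297 RPM in controls and 31323, 31352 and 40924 in the libraries labelled *Tex15*-/-. The first pair of the latter were below every control and the third was above 2 of them (log2 change -0.13, standard error 0.157, adjusted p = 0.699). Its log2 change was -0.04 without control replicate 1 and -0.23 without *Tex15*-/- replicate 3. miR-126a-5p, the other arm, had 128, 114 and 140 against 99.0, 77.2 and 135, again with overlap (log2 change -0.15, standard error 0.208, adjusted p = 0.74), at -0.02 without *Tex15*-/- replicate 2 and -0.33 without replicate 3 of that group. Reads named miR-126b-5p had 13.2, 13.5 and 18.4 against 12.3, 12.5 and 12.4 RPM, which did not overlap in RPM and overlapped after TMM scaling (log2 change -0.12, standard error 0.209, adjusted p = 0.789). These reads were not of the miR-126b strand: at least 99.3% of them in every library were antisense to the RefSeq sequence of miR-126b-5p. Their main form is the 3p arm of *Mir126a* with 1 more base at its 5′ end, and it is shown beside the main form of miR-126a-3p, as DNA with bases 2 to 8 in capitals.
miR-126a-3p, main form: tCGTACCGtgagtaataatgcg
reads named miR-126b-5p, main form: cTCGTACCgtgagtaataat

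For the supporting cells, neither arm of miR-202 passed the threshold. miR-202-5p had 1845, 1930 and 2080 RPM in controls and 1344, 1209 and 1835 in the libraries labelled *Tex15*-/-. The groups did not overlap, although 1845 and 1835 were close (log2 change -0.27, standard error 0.174, adjusted p = 0.423), and they overlapped after TMM scaling. Without *Tex15*-/- replicate 3 the log2 change was -0.42, and over all alternatives it lay between -0.42 and -0.19. miR-202-3p had 506, 543 and 374 against 410, 1258 and 688. The value of 1258 in *Tex15*-/- replicate 2 was more than that of any other library, and the groups overlapped (log2 change 0.87, standard error 0.376, adjusted p = 0.304). Without that library the log2 change was 0.30.

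As a share of both arms, the 3p arm of miR-202 was 21.5%, 22.0% and 15.2% in controls and 23.4%, 51.0% and 27.3% in the libraries labelled *Tex15*-/-. The groups did not overlap, at 19.6% ± 3.77 against 33.9% ± 14.9 (SD, n = 3 each; two-sided exact permutation test, p = 0.1, adjusted p = 0.225 over the 9 hairpins compared). Without replicate 2 the *Tex15*-/- mean was 25.3%. The opposite was seen for miR-144, whose 3p share was 63.3%, 61.2% and 66.4% in controls and 42.4%, 54.5% and 56.5% in the other group. For miR-214 it was 19.2%, 21.7% and 21.5% against 17.8%, 19.0% and 18.1%. For miR-143 the 3p share was between 99.7% and 99.9% in all libraries, and 99.76% ± 0.0416 against 99.87% ± 0.0558 (SD, n = 3 each). Each of these 3 also gave p = 0.1 and an adjusted p of 0.225 in the exact permutation test. For the other 5 hairpins the groups overlapped. All these shares count mature-annotated reads only. Hairpin-annotated reads of *Mir143*, 134–179 RPM and not assigned to arms, exceeded its mature 5p reads. With hairpin-annotated reads added, the 5p arm of *Mir142* had a mean of 84.9 RPM in controls, above the 50.6 of its mature 3p arm. Over all 157 hairpins with both arms tested, the 3p share did not overlap between groups for 14.6% higher and 18.5% lower in the libraries labelled *Tex15*-/-, so that 2 of 9 in each direction was close to that background.

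**Figure D5:**
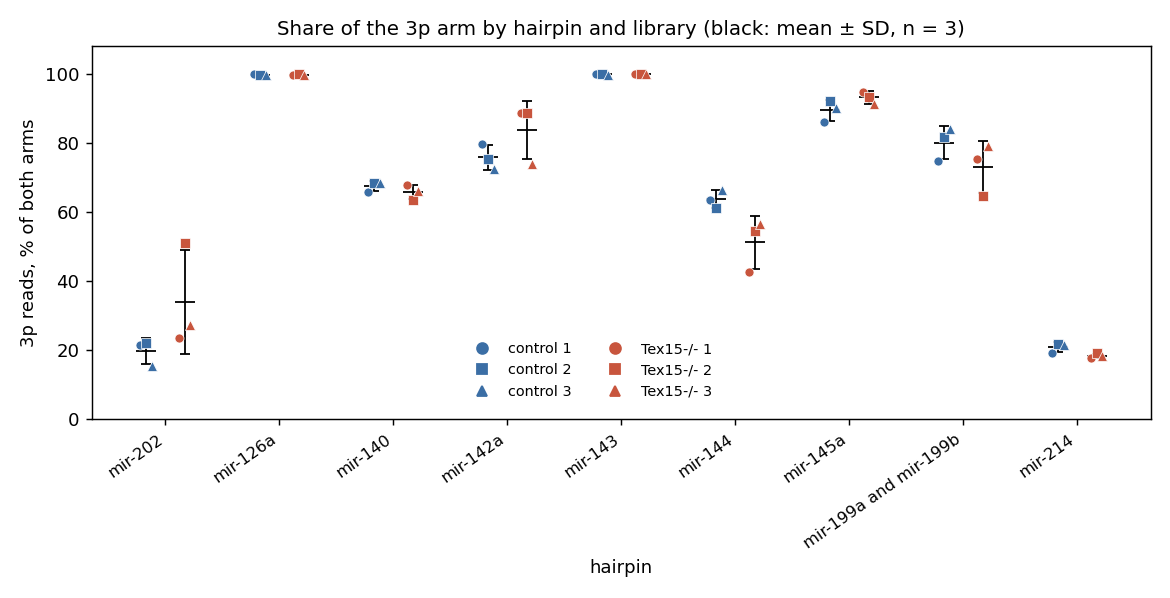
Mature-annotated reads of the 3p arm as a percentage of those of both arms, for 9 hairpins or pairs of hairpins and each library, with mean and SD in black (n = 3). The 3p share of miR-202 in *Tex15*-/- replicate 2 was 51.0%, and it was between 15.2% and 27.3% in the other 5 libraries.

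Among the blood microRNAs, miR-142a-3p had 68.8, 33.4 and 49.7 RPM in controls and 34.0, 28.6 and 35.7 in the libraries labelled *Tex15*-/- (log2 change -0.47, standard error 0.265, adjusted p = 0.383). The log2 change was -0.19 with control replicate 1 left out and -0.70 with control replicate 2 left out. Control replicate 2, the most deeply sequenced library, was within the range of the other group. miR-142a-5p had 17.7, 11.1 and 18.9 against 4.42, 3.70 and 12.6, with a log2 change of -1.02 (standard error 0.422, adjusted p = 0.304), the largest of any member, and with overlap through the 11.1 and the 12.6. It rested on few reads, from 21 in *Tex15*-/- replicate 2 to 378 in control replicate 2. Without *Tex15*-/- replicate 3 the log2 change was -1.75, without replicate 2 of that group -0.76, and without its replicate 1 -0.83.

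Of the neighbouring red cell hairpins, no arm had more than 77.4 RPM of mature-annotated reads in any library. The longer reads of miR-451a, annotated to a hairpin, are given below and are not in these values. miR-144-3p had 34.5, 19.9 and 32.9 RPM against 10.4, 11.8 and 21.5, and the groups overlapped through 19.9 and 21.5 (log2 change -0.84, standard error 0.308, adjusted p = 0.304). miR-144-5p had 20.02, 12.6 and 16.6 against 14.1, 9.87 and 16.6 (log2 change -0.12, standard error 0.257, adjusted p = 0.844). miR-451a had 77.4, 57.3 and 73.7 against 40.9, 57.5 and 52.6 (log2 change -0.31, standard error 0.198, adjusted p = 0.42). The 3 were each lower on average in the libraries labelled *Tex15*-/-, and each overlapped.

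The mature annotation in the tables held almost only reads that lie within the annotated mature sequence, and longer or shifted reads were annotated to the hairpin instead. Hairpin reads were assigned to arms for *Mir142*, *Mir451a* and *Mir202*. Those of the miR-145a and miR-143 hairpins, not assigned to arms, had 33.1–61.2 and 134–179 RPM, more than the mature 5p arm of either. In the *Mir142* hairpin, 77.7–90.8% of reads of the 5p arm were hairpin-annotated, and most of those began 2 bases before the annotated start, which changes the seed. The hairpin is shown with the annotated arms in capitals, followed by its most frequent hairpin-annotated read, as DNA (GRCm38.p6, chr11:87756864-87756927, plus strand).
*Mir142*: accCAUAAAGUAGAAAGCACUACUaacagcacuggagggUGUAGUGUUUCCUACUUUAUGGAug
main hairpin-annotated read: cccataaagtagaaagcact

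With hairpin-annotated reads added, the arm had 79.4, 71.3 and 104 RPM in controls and 48.2, 32.3 and 64.7 in the libraries labelled *Tex15*-/-, a mean of 84.9 ± 17.1 against 48.4 ± 16.2 (SD, n = 3 each). The groups then did not overlap, and the log2 change was -0.66 with an adjusted p of 0.304 from edgeR, smaller than the -1.02 of the mature annotation. The addition was chosen after the data were seen.

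For miR-451a, 38.0–62.1% of reads were longer than the mature annotation and were listed under *Mir451b*, whose hairpin lies on the opposite strand of the same place. Their 5′ end was that of miR-451a in almost every case, and the most frequent lengths were 26 and 29 nt. They are printed below the hairpin, whose annotated mature sequence is in capitals (GRCm38.p6, chr11:78073170-78073241, plus strand). Read lengths beyond the mature form are known for this microRNA, which is trimmed after its cut by Argonaute 2.
*Mir451a*: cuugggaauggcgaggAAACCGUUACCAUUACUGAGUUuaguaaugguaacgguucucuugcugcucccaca
mature-annotated main form, seed in capitals: aAACCGTTaccattactgagt
hairpin-annotated form of 26 nt: aaaccgttaccattactgagtttagt
hairpin-annotated form of 29 nt: aaaccgttaccattactgagtttagtaat

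Longer forms contributed 62.1%, 38.0% and 42.0% of miR-451a reads to control libraries and 46.8%, 43.8% and 50.7% to the libraries labelled *Tex15*-/-, so genotype did not separate them. With them added, miR-451a had 204, 92.5 and 127 RPM against 76.9, 102 and 107, with overlap, and its log2 change was -0.42 (adjusted p = 0.472, edgeR). For miR-202-5p the hairpin-annotated share was 7.79–8.36%, chiefly reads that began 1 base earlier, and adding it left the log2 change at -0.28.

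Within the mature annotation, 5′ ends were read for the 16 names with a RefSeq sequence, and most of these had 1 dominant 5′ end. Almost all reads with an earlier start were annotated to the hairpin, so they are left out of these shares. The annotated start held 93.0–94.4% of miR-126a-3p reads, 99.5–99.6% of miR-199a-5p reads and 99.7–99.8% of miR-202-5p reads. Besides the miR-126b arms, the exceptions were miR-142a-3p and miR-140-3p. In miR-142a-3p, 45.0–56.4% of reads began 1 base further in, and in miR-140-3p 37.2–40.0% did. The main forms with either start are given as DNA with bases 2 to 8 in capitals, to show how the seed moves.
miR-142a-3p, annotated start: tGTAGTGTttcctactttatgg
miR-142a-3p, start 1 base in: gTAGTGTTtcctactttatgga
miR-140-3p, annotated start: tACCACAGggtagaaccacgg
miR-140-3p, start 1 base in: aCCACAGGgtagaaccacgg

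In both microRNAs the shares of the main forms overlapped between the groups. At the 3′ end, miR-214-3p and miR-202-3p were ragged. The 18 nt form of miR-214-3p, aCAGCAGGcacagacagg, held 14.3%, 23.5% and 21.4% of its reads in controls and 20.4%, 43.2% and 27.4% in the libraries labelled *Tex15*-/-, with the highest share again in replicate 2. The 19 nt form of miR-202-3p, aGAGGTATagcgcatggga, held 35.7%, 31.7% and 26.1% against 25.4%, 24.2% and 28.8%, and that of 22 nt 38.2–46.2% over all libraries.

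Lists of other microRNAs were read beside the members. The other blood microRNAs (miR-223, miR-150, miR-155, miR-486 and miR-146, 13 names, 11 tested) summed to 577, 540 and 638 RPM in controls and 663, 974 and 599 in the libraries labelled *Tex15*-/-, led by miR-486b-5p with 329, 290 and 323 against 450.8, 743 and 359. The latter is abundant in red cells, and its groups did not overlap and were higher in the libraries labelled *Tex15*-/-, where miR-451a and miR-144-3p were lower on average. Of the 11 names tested in that list 4 had a log2 change below 0, with a median of 0.04 and a range of -0.46 to 0.88. miR-486a-5p was counted from nearly the same reads, so that the tally of that list counts them under both names. The germ cell and pluripotency list (the miR-290 to miR-295 cluster with miR-302 and miR-367, 21 names, 13 tested) summed to 3447, 3130 and 3310 against 4276, 4753 and 3144, led by miR-292a-5p with 1713, 1670 and 1659 against 2737, 3625 and 1684. The sum follows that name, since 8 of the 13 tested had a log2 change below 0, with a median of -0.06 and a range of -1.16 to 0.84. In both lists *Tex15*-/- replicate 2 was the highest library, as it was for miR-202-3p, and it was the lowest for miR-199a/b-3p. The part of these lists in the differences between members was not tested. Epithelial microRNAs (miR-200, miR-141 and miR-429, 8 names, 6 tested) summed to 431, 386 and 432 against 286, 343 and 391, led by miR-200b-3p with 128.8, 147.5 and 154.9 against 63.3, 102 and 151, and 4 of 6 had a log2 change below 0, with a median of -0.15. Those of tissues outside the gonad, chiefly liver, muscle and brain (17 names, 7 tested) summed to 4005, 3822 and 4619 against 3957, 3737 and 4040, led by the liver microRNA miR-122-5p with 1055, 1958 and 3176 against 1866, 1970 and 2216, and 5 of 7 were below 0, with a median of -0.20. No name of these lists passed the threshold.

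The host genes of the members, and genes antisense to their hairpins, were then examined in sorted E16.5 gonocytes, a different sample and readout. All of these testes also carried 1 *Miwi2* tdTomato allele, whose fluorescence marked the gonocytes for the sort. There were 3 *Tex15*+/- and 3 *Tex15*-/- libraries of 4893265 to 5697020 gene reads. None of the 5 genes tested passed the threshold in edgeR, where 0 of 16311 genes (0.0%) did, 1497 had an unadjusted p under 0.05, and DESeq2 called 14. *Tex15* itself, with 8183, 8315 and 9082 reads in controls and 2338, 1267 and 1310 in *Tex15*-/- gonocytes, was therefore not called either. The lack of a call in this fit thus does not show that a gene was unchanged. Of the 5 genes tested, *Egfl7* and *Wwp2* hold their microRNA on the same strand. *Dnm1*, *Dnm2* and *Dnm3* lie on the opposite strand to theirs and are not hosts. *Wwp2*, the ubiquitin ligase gene that holds *Mir140*, had 158.0 ± 13.5 CPM in controls and 147.2 ± 8.0 in *Tex15*-/- gonocytes (SD, n = 3 each, with overlap; log2 change -0.10, standard error 0.104, adjusted p = 0.756). *Dnm2*, which encodes a dynamin, had 90.5, 79.2 and 85.2 against 84.4, 94.0 and 95.7 CPM. *Dnm1* had 7.47, 9.31 and 5.58 against 9.50, 10.48 and 3.40, and *Dnm3* 6.011, 8.71 and 4.68 against 8.12, 9.94 and 6.61. *Egfl7* had 6.74, 7.92 and 5.76 CPM against 8.32, 19.0 and 5.85, with its highest value in *Tex15*-/- replicate 2 (log2 change 0.70, standard error 0.415, adjusted p = 0.608).

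*Dnm3os*, *Carmn*, *Mir142hg* and *Mir202* had at most 8 reads in each control gonocyte library, and *Gm2044* was not analysed here. *Dnm3os*, the transcript of *Mir199a-2* and *Mir214*, had 5, 0 and 3 reads in controls and 9, 201 and 20 in *Tex15*-/- gonocytes, and did not pass the filter on low counts. The 201 reads were of replicate 2, and the count of host genes past the threshold became 1, *Dnm3os*, with no filter and without *Tex15*-/- replicate 1. Over all genes the same settings called 488 of 42446 and 388 of 17520. *Carmn*, which is known as a smooth muscle transcript beside *Mir143* and *Mir145a*, had 3, 3 and 8 reads against 8, 27 and 7. *Mir142hg* had 0, 0 and 2 against 0, 0 and 1, and the *Mir202* gene had none in any of these libraries of long RNA. The gonocyte and small RNA libraries that share a replicate number are separate samples, and nothing in the labels ties them.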

How the data were processed

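Small RNA of E16.5 testes was measured in 3 libraries labelled control and 3 labelled *Tex15*-/-, and messenger RNA of sorted gonocytes in 3 and 3. For small RNA, the authors removed adaptors with cutadapt 1.8.1, annotated sequences with Bowtie 1.2.1.1 and deposited the whole-number read count of each sequence with its annotation. For gonocytes, the authors deposited whole-number counts per gene from HISAT2 and HTSeq 0.11.1. Rows without a gene, which held 61.3–67.3% of the counts of each library, were left out. Values start from these counts, without molecular identifiers, so that their precision is not that of independent molecules. Tables of repeat counts and the P20 libraries were not used.

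Counts were summed per mature name over distinct sequences, and a sequence with several names counted for each. The library size was all mature reads. Tests between genotypes used edgeR 4.0.16 under R 4.3.3 (TMM, filterByExpr with a minimum count of 10 and total of 15, quasi-likelihood test, Benjamini-Hochberg adjustment over all names, threshold 0.01), and DESeq2 1.42.0 was an alternative. Other alternatives were no TMM factors, another library size, other filters on counts and read length, other ways to count shared sequences, and each library left out. Names as deposited, merged names, added hairpin-annotated reads and the mesenchymal sum without miR-199a/b-3p were chosen after seeing the data. Shares were compared by exact permutation with scipy 1.17.1. Every member, every gene of the list of host and antisense genes fixed for the gonocyte fit that was found there, and the leading name of each list are named. Members and lists were chosen with earlier results of these data known. The replicate numbers come from the titles. Deviations from group means of same-numbered small RNA libraries correlated at 0.104, 0.145 and 0.128, each over 0.1, so the numbers were taken to pair these libraries, and a fit with a replicate block was made. Small RNA libraries of different number correlated at -0.10 to -0.04. In gonocytes the same-numbered correlations were -0.10, 0.00 and -0.01, so there they share a number only. However, gonocyte control replicate 3 and *Tex15*-/- replicate 1, of different number, correlated at 0.105. A value over 0.1 therefore does not establish a pair, and the pairing of the small RNA libraries remains an assumption. On simulated counts with 100 changed microRNAs of 576 tested and a coefficient of variation of 0.2, 82% of log2 changes of 1 and 100% of 2 were recovered, with 2 false calls. For gonocyte genes, 200 changed of 16409, the shares were 47% and 100%, with 5 false calls. In both simulations every name had the same variation, and the changed names were drawn from well-counted ones only. Members such as miR-202-3p, at 785 ± 432 RPM (SD, n = 3) in the libraries labelled *Tex15*-/-, varied more. The recovered shares therefore do not give the power of the test for the members. In gonocytes *Tex15* itself was not called, so the shares there do not give the power for the host and antisense genes.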

Additional observations from a re-analysis of the deposited data

How the results depend on the processing

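The count of members past an adjusted p of 0.01 was 0 under every alternative run. The count of all names past it, 0 as reported, was 2 without TMM factors, 3 with all 18–32 nt reads as library size, 4 with DESeq2, 12 without a filter on low counts, and 0 to 1 with each library left out. It was 3 at an adjusted p under 0.05, and 0 with the replicate block, which changed no other call. At an unadjusted p under 0.05 the block gave 7 members lower and 117 names in all, against 5 and 92 without it, and the exact permutation tests did not use the pairing. Without the filter, miR-142a-5p had an adjusted p of 0.0238. The median of all names moved by more than 0.1 on the log2 scale only without TMM factors. Of 415 log2 changes of members under alternatives, 397 kept their direction and their side of the threshold and 18 changed sign without passing it. miR-145a-3p, near 0, was -0.15 without TMM factors, -0.025 with all reads as library size, -0.0034 with DESeq2, -0.085 without a filter, -0.0054 with at least 10 counts in every library, -0.027 with shared sequences left out, -0.026 with the names merged, -0.087 with 21–23 nt reads, and -0.13 to 0.086 with each library left out. miR-199a-3p became 0.49 with shared sequences left out and miR-199b-3p 0.047 with names as deposited, settings that keep only part of the reads of that pair. miR-126b-5p and miR-144-3p did not pass the filter with 21–23 nt reads and have no value there. With each library left out, the ranges were -0.21 to 0.011 for miR-126b-5p, -0.091 to 0.013 for miR-140-5p, -0.28 to 0.039 for miR-144-5p and -0.13 to 0.069 for miR-214-5p. With each library left out, the log2 difference of the supporting sum lay between -0.20 and 0.040. The mesenchymal sum kept its direction there, at -0.58 to -0.29, and was -0.020 without miR-199a/b-3p. The *Tex15* fragment difference stayed above 0 with each library left out, and was 3.55 per 1000000 reads without *Tex15*-/- replicate 2, against 23.2 with it. In gonocytes the count of host genes past the threshold was 1 without a filter, where 488 of 42446 genes were called, and 0 to 1 with each library left out, with 388 of 17520 genes called without *Tex15*-/- replicate 1. *Dnm1* changed to -0.028 with the replicate block, and lay between -0.21 and 0.43 with each library left out, and the block there stands for a shared number only. Depth limits the low members, such as miR-142a-5p with 21 to 378 reads and miR-126b-3p with 0 to 2.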
